A study of Mus musculus with 8 samples.

Results

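Apolipoproteins, the proteins that coat lipoprotein particles, were followed in mouse liver through every probe set whose platform annotation gave Apoa1, Apoa2, Apoa4, Apoa5, Apob, Apoc1, Apoc2, Apoc3, Apoe or Apom as its only gene. This gave 10 genes read by 16 probe sets (4 for Apoa1, 2 each for Apoa4, Apob and Apom, 1 for each other gene), of 45037 probe sets on the array other than controls. All 16 passed the filter on low signals that left 22519 probe sets for testing. RNA came from whole livers on 8 one-colour Affymetrix Mouse Genome 430 2.0 arrays, with 2 arrays in each of 4 groups. The groups were wild type (WT) mice of 3 months, WT mice of 12 months, WT mice of 19 months, and mutant (MT) mice of 3 months that lack Sirt1, an NAD-dependent deacetylase. The strain background of all mice was a mix of 129/FVB/Black Swiss, and all livers were taken in the morning. The MT mice carry a targeted deletion within Sirt1 in every cell and come from the minority of null animals that survive to adulthood. The study's text and its methods differ on the number of animals, the former naming more mice for a group than it has arrays, and how mice map to arrays is not stated, so the spread behind each p-value is that between arrays and may be technical.

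The liver makes most apolipoproteins of the plasma. Apob is the structural protein of very low density lipoprotein (VLDL), which carries triglyceride out of the hepatocyte, whereas Apoa1 and Apoa2 form high density lipoprotein (HDL). The smaller exchangeable apolipoproteins move between particles: Apoc2 activates lipoprotein lipase, Apoc1 and Apoc3 slow the clearance of triglyceride-rich particles, Apoa5 promotes it, Apoe binds the LDL receptor family, Apom carries sphingosine-1-phosphate on HDL, and Apoa4, made in intestine and liver, responds to fat and feeding. Several of the genes are neighbours: Apoa1, Apoc3, Apoa4 and Apoa5 follow each other on chromosome 9, and Apoc1 and Apoe lie side by side on chromosome 7, where Apoc2 also lies (RefSeq, GRCm38.p6).

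The promoters of the 3 genes that the differences below turn on are shown as the 250 bases before the RefSeq transcription start, written on the strand of the gene. Apoa4 lies at chr9:46240594-46240843 on the plus strand, Apoc2 at chr7:19677942-19678191 on the minus strand and Apom at chr17:35131802-35132051 on the minus strand. Capitals mark a match to the direct repeat of the nuclear receptor half-site AGGTCA with 1 base between both copies, a layout bound by liver nuclear receptors such as Hnf4a.
Apoa4: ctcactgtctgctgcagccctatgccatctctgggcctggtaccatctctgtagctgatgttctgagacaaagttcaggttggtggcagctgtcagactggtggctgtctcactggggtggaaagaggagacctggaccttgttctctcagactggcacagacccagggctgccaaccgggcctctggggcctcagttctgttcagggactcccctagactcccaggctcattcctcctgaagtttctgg
Apoc2: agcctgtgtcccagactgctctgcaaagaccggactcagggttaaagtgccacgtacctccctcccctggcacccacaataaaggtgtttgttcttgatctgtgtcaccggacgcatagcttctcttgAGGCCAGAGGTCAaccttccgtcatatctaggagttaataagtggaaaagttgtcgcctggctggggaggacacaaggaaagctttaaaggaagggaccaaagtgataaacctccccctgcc
Apom: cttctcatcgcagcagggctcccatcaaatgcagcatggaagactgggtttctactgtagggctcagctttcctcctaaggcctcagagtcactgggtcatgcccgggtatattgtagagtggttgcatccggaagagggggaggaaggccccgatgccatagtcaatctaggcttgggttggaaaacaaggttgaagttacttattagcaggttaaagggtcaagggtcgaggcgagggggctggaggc
Windows were found for 8 of the 10 genes (12 windows, since Apoa2, Apoa5 and Apoe have several starts) and were searched on both strands. The direct repeat with at most 2 mismatches was present in 2 of the 12 windows and in 3.2% of 32851 windows over all genes. The match in Apoc2 had 1 mismatch and lay 122 to 110 bases before the start, and that in Apoa2 had 2 mismatches. The half-site AGGTCA alone, which the Apoc2 repeat contains, was in 2 of 12 windows against 14.0% of all, and CCAAT was in 2 of 12 against 33.8%. The Apoa4 and Apom windows held no match to these motifs.

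Before the comparisons, 3 facts of the arrays bear on all of them. Array medians of the signal lay between 74.5 and 82.8, and replicate arrays of a group correlated at 0.913 to 0.926 across probe sets. The Sirt1 probe set (1418640_at) read 539 and 589 on the WT arrays of 3 months against 615 and 713 on the MT arrays, and its place relative to the deleted part is not known here, so it checks no label. All Xist probe sets were at or above the 95.2nd percentile and the Y-linked ones at or below the 43.1st on all 8 arrays. These values go against the study's methods, by which the mutant animals were males compared within one gender, and the sex of the mice is unsettled here. Hepatocyte markers, among them albumin and transthyretin, were above the array median in every sample.

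The MT comparison addresses which liver transcripts differ in surviving mice that lack Sirt1, and the comparisons of WT mice which ones differ with age. No apolipoprotein probe set passed limma at an adjusted p under 0.05 in any comparison. Between MT and WT mice of 3 months 0 of 16 were called, where 0.515% of all tested probe sets were called. At an unadjusted p under 0.05 there were 2 (both Apoa4), against 13.5% of all, and the methods' t-test with a fold over 1.5 called 0, against 3.95%. At 12 months 0 of 16 were called (0.0133% of all), 0 at an unadjusted p under 0.05 (8.57% of all) and 1 by the methods' t-test (2.23%), an Apoa4 probe set. At 19 months 0 were called (0.0355% of all), 8 at an unadjusted p under 0.05 (12.5%) and 1 by the methods' t-test (3.33%), Apoc2. Between 19 and 12 months limma called 0 of 16 and 0% of all, 12 at an unadjusted p under 0.05 (10.7%), and the methods' t-test called both Apoa4 probe sets (2.33%). After Benjamini-Hochberg adjustment the methods' t-test called 0 probe sets of any gene in each comparison. A test of any difference among the 4 groups called 0.431% of all and 0 of 16, with the 2 Apoa4 probe sets ranked 131 and 155 of 22519 (limma F, adjusted p = 0.0555 and 0.0592) and Apoc2 ranked 1322 (adjusted p = 0.203).

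**Figure D1:**
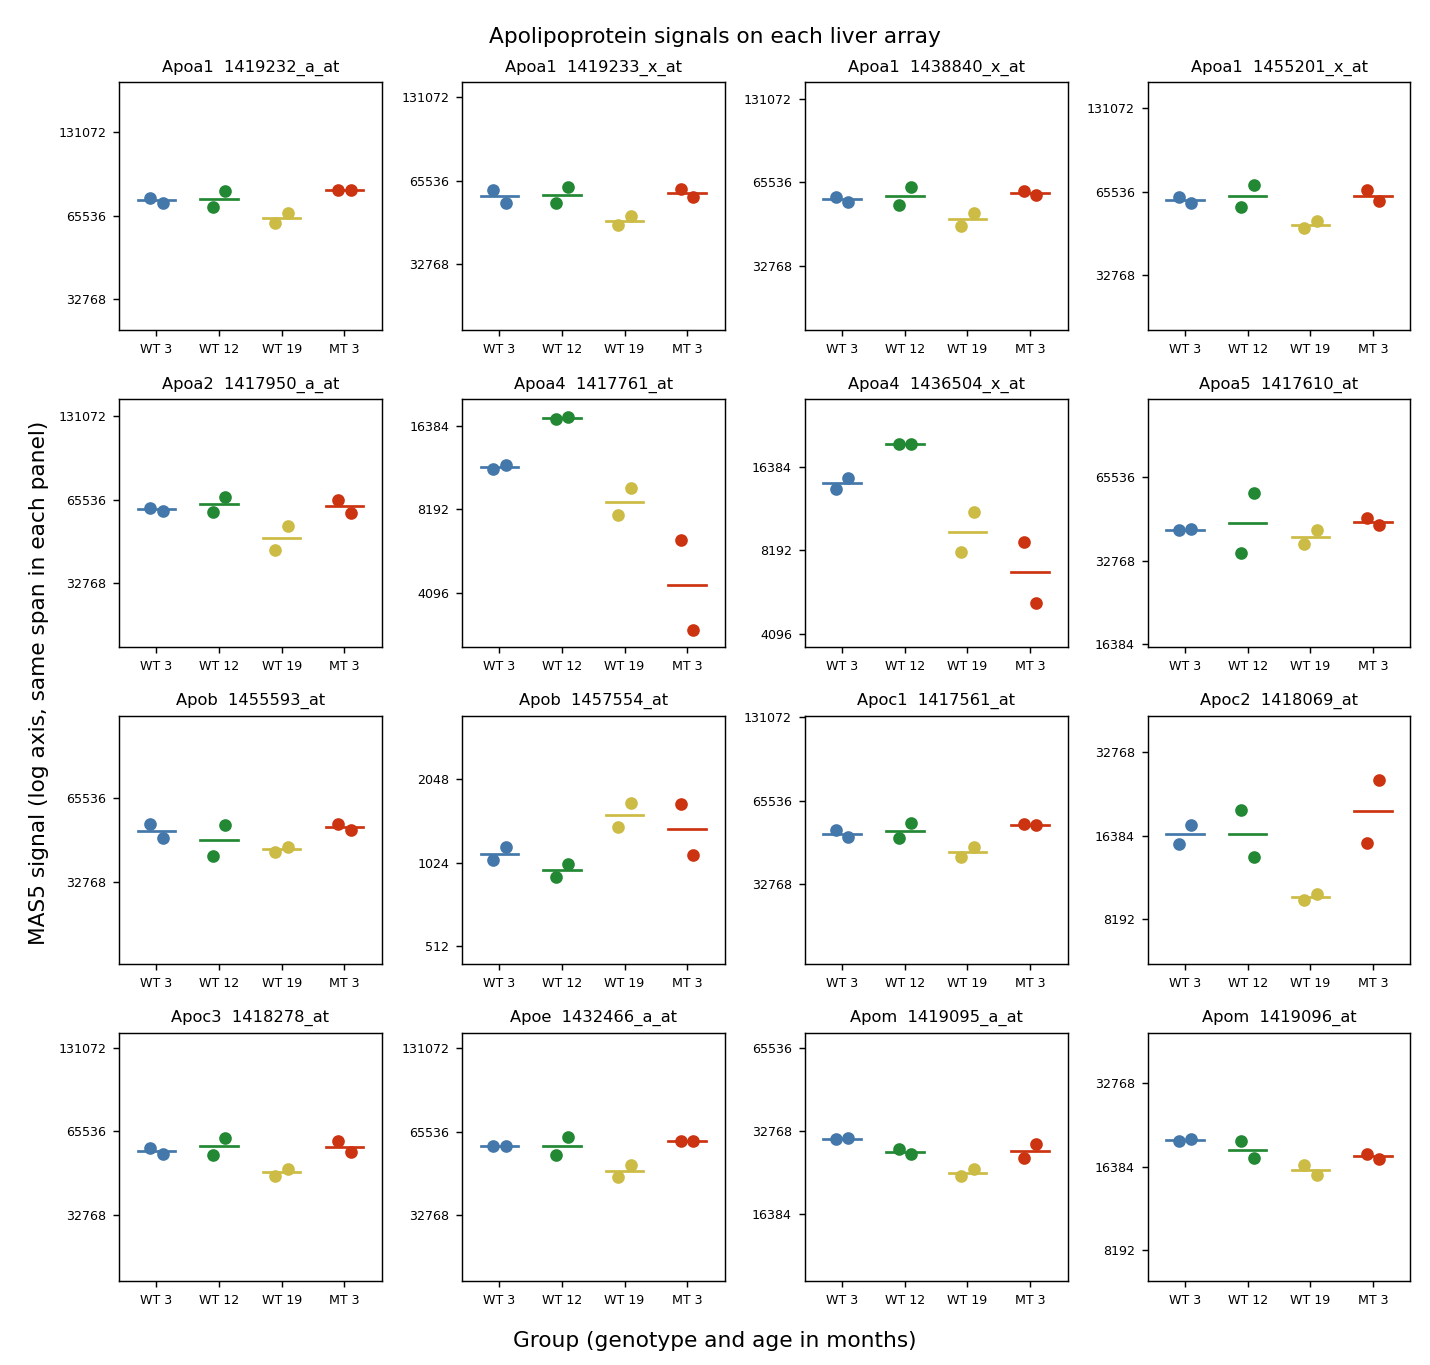
MAS5 signal (log axis of the same span in each panel) of the 16 apolipoprotein probe sets by group, where points are arrays and the line marks their geometric mean. Apoa4 runs from 3017 on an MT array to 17712 at 12 months, whereas most other genes lie at similar heights in all groups, with the 19-month arrays lowest.

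Apoa4 had the largest F statistics of the members. With probe set 1417761_at its signals were 11429 and 11896 at 3 months, 17394 and 17712 at 12 months, 7794 and 9816 at 19 months, and 6354 and 3017 in MT mice. The 4 groups did not overlap, with MT lowest, then 19 months, 3 months and 12 months. The second probe set, 1436504_x_at, whose suffix marks probes that may also bind related transcripts, read 13620 and 14940 at 3 months, 19758 and 19856 at 12 months, 8045 and 11290 at 19 months, and 8786 and 5302 in MT mice. It gave the same order of group means, but the MT arrays overlapped those of 19 months. Across the 8 arrays both probe sets correlated at r = 0.975, a description over arrays that share scaling and RNA.

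The MT signal of Apoa4 was 0.376 and 0.478 times the WT signal with the 2 probe sets. The log2 differences were -1.41 ± 0.28 and -1.06 ± 0.23 (SE, n = 2 arrays per group), with 95% intervals of -2.05 to -0.78 and -1.58 to -0.54, and did not pass (limma adjusted p = 0.0665 and 0.0802). The MT arrays stood apart from each other by 1.07 and 0.73 on the log2 scale, against a median of 0.26 over all tested probe sets in that group. The call turns on array 1 of the MT group: without it the differences were -1.95 and -1.43 (limma adjusted p = 0.00560 and 0.0344), resting on 1 MT array assumed to vary like the other groups, and without array 2 they were -0.88 and -0.70 (adjusted p = 0.0823 and 0.206). In WT mice of 12 months Apoa4 differed from 3 months by 0.59 ± 0.28 and 0.47 ± 0.23 (adjusted p = 0.612 and 0.620), with both arrays above both young arrays for either probe set. At 19 months it differed from 3 months by -0.41 ± 0.28 and -0.58 ± 0.23 (adjusted p = 0.597 and 0.357). From 12 to 19 months the differences were -1.005 and -1.06 (adjusted p = 0.295 and 0.202), again with separated arrays.

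Apoa4 is also a gene of the enterocyte, so gut markers were read beside it. Fabp2, a fatty acid binding protein, was between 5788 and 10769 on all arrays and differed by -0.27 in MT mice. Vil1, Lct, Alpi and Cdx2 did not pass the filter and read 5.35 to 93.9, each above the array median on at most 1 array. Hepatocyte markers had summed signals of 333491 to 349726 on MT arrays and 315229 to 325916 on WT arrays of 3 months, with 6 of 7 above 0 and a median log2 difference of 0.12. The 100 brightest tested probe sets of any gene had a median of 0.05, with 76 above 0. Kupffer cell markers summed to 20065 to 22855 against 26256 to 27059, with 9 of 11 below 0. The part of cell composition in the Apoa4 difference was not tested, and in whole liver fewer cells of a type and less RNA per cell cannot be told apart.

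The 5 genes whose log2 signals followed Apoa4 (1417761_at) most closely over the 8 arrays, among 19278 probe sets with 1 other symbol, were Aqp8 (r = 0.990), Dmtf1 (0.968), Phax (0.965), Peli2 (0.960) and Hspb1 (0.959). Aqp8, a water channel of hepatocytes, read 9102 and 9794 at 3 months, 15577 and 12985 at 12 months, 6445 and 6783 at 19 months, and 4566 and 1578 in MT mice. Its groups did not overlap and stood in the order of the Apoa4 groups, and array 2 of the MT group was the lowest for both genes. Aqp8 differed by -1.81 ± 0.38 in MT mice, without passing (limma adjusted p = 0.0730). The other 4 moved less, with MT differences of -0.72 for Hspb1, a small heat shock protein, -0.46 for Peli2, -0.30 for Dmtf1 and -0.29 for Phax. These correlations describe 8 arrays in 4 groups, and the genes were picked for them.

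**Figure D2:**
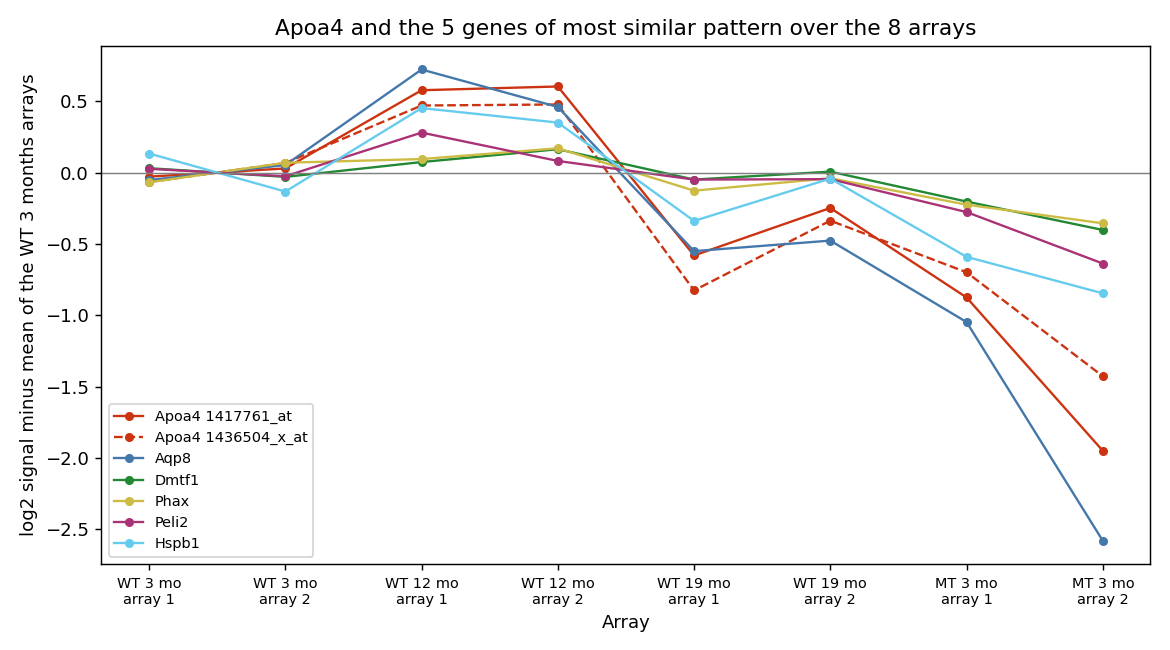
Log2 signal of both Apoa4 probe sets and the 5 genes of most similar pattern on each of the 8 arrays, each line set to 0 at the mean of the WT arrays of 3 months. Apoa4 and Aqp8 lie above 0 at 12 months and below 0 at 19 months and in MT mice, lowest on MT array 2.

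On chromosome 9 Apoa4 lies between Apoc3 and Apoa5. Apoc3, an inhibitor of triglyceride clearance, read 56861 and 54055 at 3 months, 53797 and 61836 at 12 months, 45233 and 47897 at 19 months, and 60399 and 54980 in MT mice. Apoa5 read 42215 and 42680, then 35001 and 57304, then 37656 and 42408, and 46827 and 44023 in MT mice, so that both 12-month arrays lay outside the range of the young pair on opposite sides. In MT mice Apoc3 differed by 0.06 ± 0.11 (limma adjusted p = 0.884, 95% interval -0.20 to 0.31) and Apoa5 by 0.10 ± 0.20 (0.882, -0.34 to 0.54). Over the arrays Apoa4 correlated with the other 9 genes at -0.46 to 0.46.

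Apoa1, the main protein of HDL, was read by 4 probe sets that moved together (r = 0.927 to 0.983 over 8 arrays). Probe set 1419232_a_at read 76003 and 72927 at 3 months, 70425 and 80380 at 12 months, 61860 and 67042 at 19 months, and 81098 and 81296 in MT mice. The 19-month arrays were the lowest and did not overlap those of 3 months with any of the 4. The MT differences were 0.04 to 0.13 (limma adjusted p of at least 0.679), those at 12 months 0.02 to 0.05, and those at 19 months -0.30 to -0.21 (adjusted p of at least 0.354). With quantile normalization, which gives every array the same distribution of signals, the latter became -0.079 to 0.041, above 0 with 1419232_a_at. Apoa2, the second HDL protein, read 61024 and 59852 at 3 months, 59174 and 67233 at 12 months, 43256 and 52736 at 19 months, and 65491 and 58600 in MT mice. It differed by 0.04 ± 0.13 in MT mice and by -0.34 ± 0.13 at 19 months (adjusted p = 0.940 and 0.345), with the 19-month arrays again below the others, and with quantile normalization the latter was -0.13.

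Apom had 2 probe sets that agreed in direction. With 1419095_a_at it read 30668 and 30902 at 3 months, 28157 and 27097 at 12 months, 22591 and 23803 at 19 months, and 26217 and 29318 in MT mice, and with 1419096_at 20234 and 20659, 20188 and 17605, 16588 and 15246, and 18213 and 17435. Both WT arrays of 3 months lay above all 6 other arrays with either probe set. The differences at 19 months were -0.41 ± 0.11 and -0.36 ± 0.12 (limma adjusted p = 0.230 and 0.283), those in MT mice -0.15 and -0.20 (0.597 and 0.508), and those at 12 months -0.16 and -0.12 (0.743 and 0.847). With quantile normalization the 19-month differences were -0.33 and -0.28.

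Apob was read by 2 probe sets that disagreed (r = -0.02 over 8 arrays). The first, 1455593_at, read 52888 and 46959 at 3 months, 40615 and 52619 at 12 months, 42122 and 43786 at 19 months, and 52846 and 50565 in MT mice. The second, 1457554_at, read 1043 and 1169, then 910 and 1015, then 1380 and 1677, and 1670 and 1094 in MT mice. At 19 months the first differed from 3 months by -0.21 ± 0.14 and the second by 0.46 ± 0.21, both with separated arrays and neither passing (limma adjusted p = 0.573 and 0.420), so no direction is given for the gene. Quantile normalization gave -0.029 and 0.43. Against 12 months the second differed by 0.66 ± 0.21 (adjusted p = 0.329). In MT mice the differences were 0.05 and 0.29, with overlapping arrays. Apobec1, which edits the Apob transcript, differed by -0.42 ± 0.23 in MT mice (adjusted p = 0.473).

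Apoe, the ligand of the LDL receptor, read 58056 and 57969 at 3 months, 54022 and 62626 at 12 months, 45087 and 49569 at 19 months, and 60821 and 60442 in MT mice. The differences were 0.06 ± 0.11 in MT mice, 0.00 ± 0.11 at 12 months and -0.30 ± 0.11 at 19 months (limma adjusted p = 0.863, 0.995 and 0.345). Its neighbour Apoc1 read 51224 and 48418, then 48022 and 54368, then 41019 and 44748, and 53757 and 53372 in MT mice. It differed by 0.11 ± 0.11, 0.04 ± 0.11 and -0.22 ± 0.11 in the same order (adjusted p = 0.748, 0.956 and 0.474). With quantile normalization the 19-month difference was -0.085 for Apoe and -0.022 for Apoc1. For both genes the 19-month arrays were the lowest and the MT arrays just above the young WT arrays. Over the 8 arrays the probe sets of Apoa1, Apoa2, Apoc1, Apoc3 and Apoe correlated between genes at 0.890 to 0.997, which describes bright probe sets that share the scaling of each array.

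Apoc2, the cofactor of lipoprotein lipase whose promoter holds the direct repeat shown above, read 15332 and 17860 at 3 months, 20303 and 13708 at 12 months, 9573 and 10087 at 19 months, and 15461 and 26090 in MT mice. Both 19-month arrays lay below all 6 other arrays, while the pairs at 12 months and in MT mice were wide. At 19 months the signal was 0.594 times that at 3 months, a log2 difference of -0.75 ± 0.25 (95% interval -1.31 to -0.20) that did not pass (limma adjusted p = 0.292). It passed in a fit of the 3-month and 19-month arrays alone (limma adjusted p = 0.0381), where 135 probe sets were called in place of 8. Against 12 months it differed by -0.76 ± 0.25 (adjusted p = 0.333). In MT mice the difference was 0.28 ± 0.25 (adjusted p = 0.688) and at 12 months 0.01 ± 0.25.

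**Figure D3:**
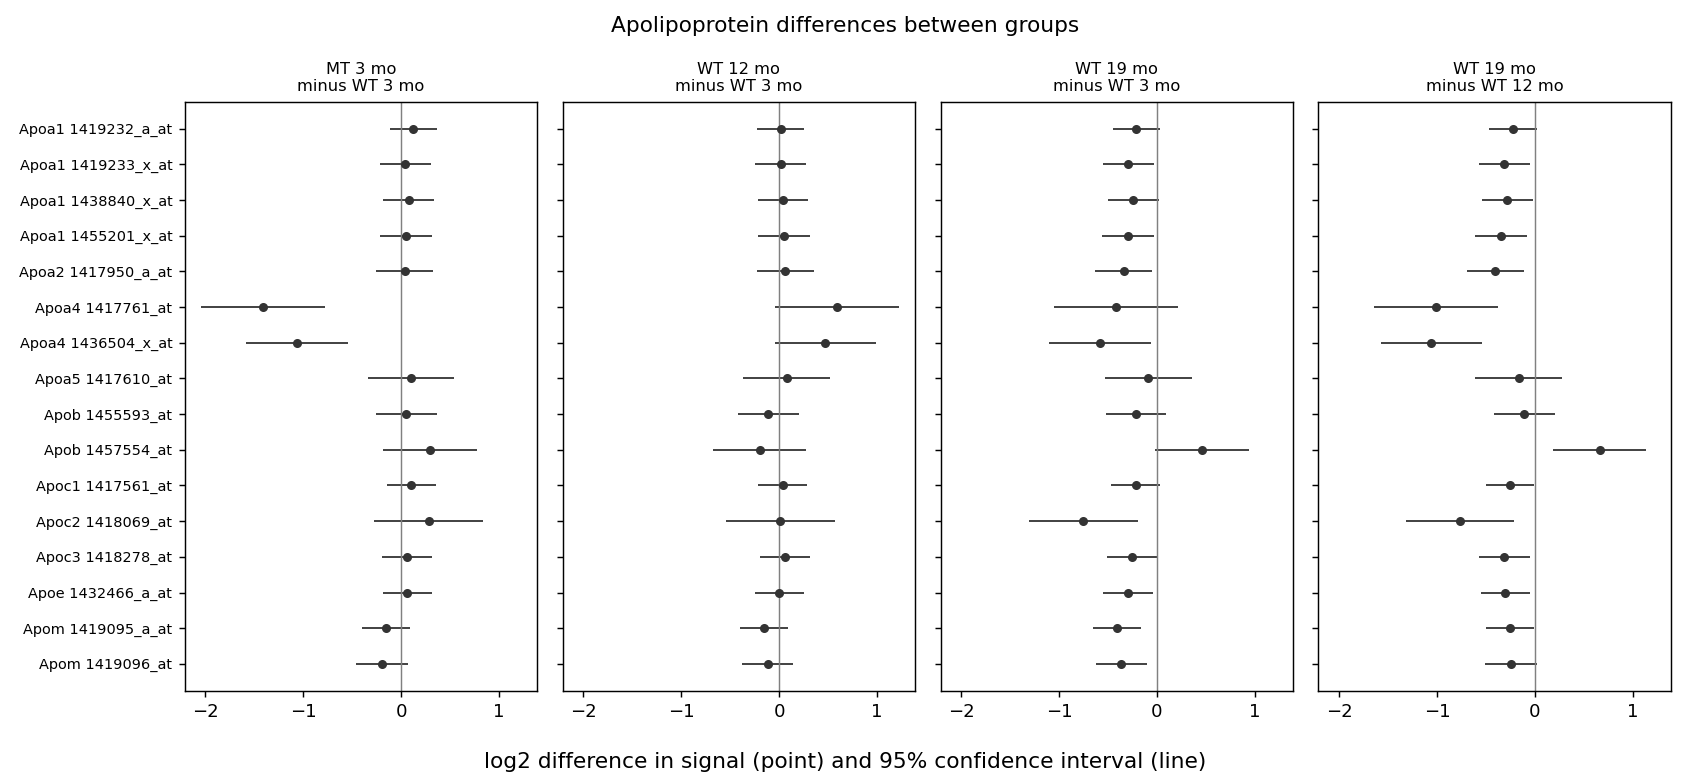
Log2 difference in signal (point) with its 95% confidence interval (line) for the 16 apolipoprotein probe sets in 4 comparisons. In MT mice both Apoa4 probe sets lie at -1.41 and -1.06 and the others between -0.20 and 0.29; in both comparisons of 19 months 15 of 16 points lie left of 0.

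Lower apolipoprotein signals at 19 months were shared by nearly all members. Against 3 months 15 of 16 probe sets lay below 0, with a median log2 difference of -0.29 where that of all tested probe sets was 0.02. In 14 of 16 both 19-month arrays were below both 3-month arrays, as in 21.8% of all, and 1 was above (26.4% of all). Against 12 months 15 of 16 lay below 0 with a median of -0.29, 13 were separated lower (17.5% of all) and 1 higher (23.8%). Between MT and young WT mice 5 were separated higher (24% of all) and 4 lower (21.7%), and at 12 months 2 higher (19.3%) and 3 lower (20.8%). The comparisons with 3 months share the same control arrays. The 16 probe sets read only 10 genes, with 4 on Apoa1, so they are not independent. The shares over all are not matched to the members for brightness.

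The brightest probe sets of the array as a whole were lower at 19 months too. Among the 100 tested probe sets of highest mean, which hold 10 of the 16 members, the median log2 difference from 3 months was -0.22 and 96 lay below 0. It was -0.09 for the next 400, which hold both Apom probe sets, and -0.08 for the 1500 after them, which hold Apoa4 and Apoc2. The highest signal of an array was 70965 and 68740 at 19 months against 91304 and 90059 at 3 months, although the mean between the 2nd and 98th percentiles was 500.004 on all 8. It was 74966 and 86596 at 12 months and 81436 and 81573 in MT mice. At 12 months the 100 brightest probe sets had a median difference of 0.006, so the highest signal alone does not track them. Quantile normalization brought the median of the members to -0.07, with 13 of 16 below 0, and Apoc2 to -0.65. Cyclic loess, chosen after seeing the data, gave a median of -0.11 with 14 below 0. Against 12 months the median of the members was -0.08 with quantile normalization, with 13 of 16 below 0, and -0.14 with cyclic loess, with 14 below 0.

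**Figure D4:**
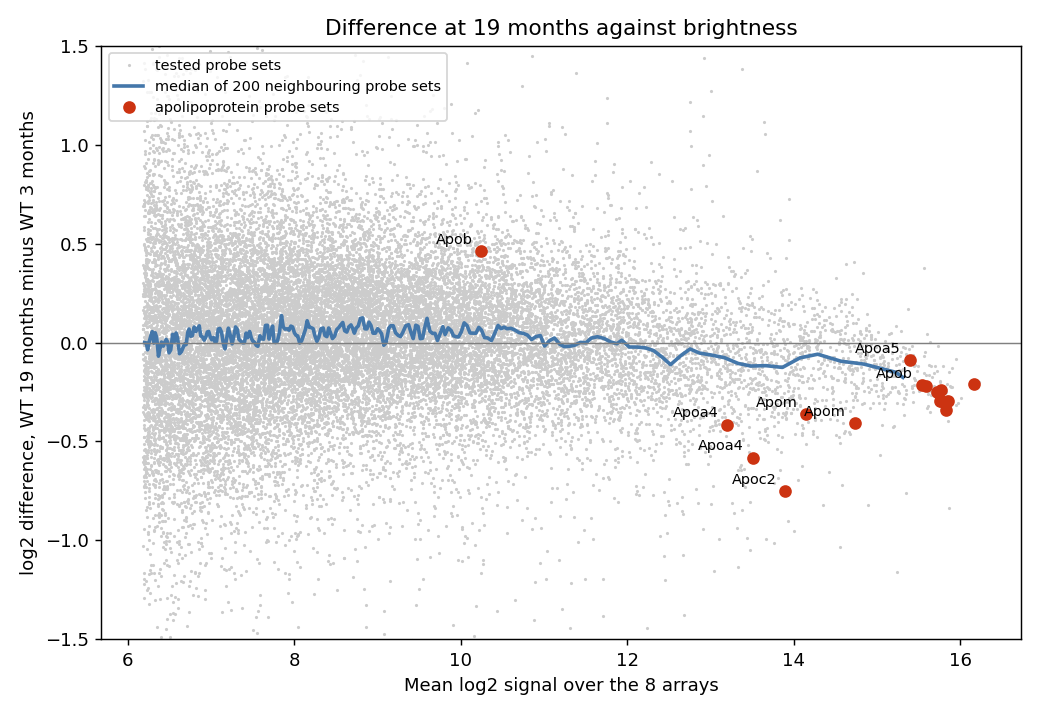
Log2 difference between WT mice of 19 and 3 months against the mean log2 signal over the 8 arrays, for 22519 tested probe sets (grey), the median of 200 neighbouring ones (line) and the 16 apolipoprotein probe sets (red); 188 probe sets lie beyond 1.5 on the vertical axis and are not shown. The line drops below 0 among the brightest probe sets, where most members sit, and Apoc2, Apoa4 and Apom lie further below it.

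Cell type markers at 19 months were read beside these values. Over all tested probe sets limma called 0.0355% in this comparison, and 12.5% had an unadjusted p under 0.05. Hepatocyte markers summed to 264828 to 285277 against 315229 to 325916 at 3 months, with 5 of 7 below 0 and a median of -0.22. Of these Alb, Ttr, Cps1, Serpina1c and Fgb read at least 38990 on every array. The 100 brightest tested probe sets of any gene had a median of -0.22 as well, so the marker values do not stand apart from other bright signals. Kupffer cell and macrophage markers summed to 30881 to 48817 against 26256 to 27059, with 11 of 11 above 0 and a median of 0.64, and 0 of 11 were called by limma (6 at an unadjusted p under 0.05). Plasma and B cell markers summed to 7482 to 8300 against 974 to 1276, with 1 of 4 called. Cd79a, listed with them, did not pass the filter. At 12 months these markers already summed to 3657 to 4857, also with 1 of 4 called (0.0133% of all). Neutrophil markers summed to 1465 to 1702 against 665 on both young arrays, with 2 of 2 above 0, a median of 1.27, 0 called and 2 at an unadjusted p under 0.05. The 2 tested were S100a8 and S100a9. Ngp, Ltf and Elane, listed with them, did not pass the filter and were above the array median on 2, 0 and 2 arrays. T and NK cell markers summed to 390 to 464 against 618 to 667, with 3 of 5 below 0, a median of -0.19, 0 called and 2 lower at an unadjusted p under 0.05. Exocrine pancreas markers summed to 1561 to 1944 against 4267 to 4835, with 2 of 2 below 0, a median of -0.92, 0 called and 1 at an unadjusted p under 0.05. Most of this sum was Cela1, at 1399 to 4712 over the arrays, with Cela3b at 76.8 to 274. Cpa1, Cpb1 and Ctrb1 did not pass the filter, read 1.55 to 28.6 and were above the array median on 0 arrays. Control transcripts are read at both ends, and all 3 stood further towards the 3' end at 19 months than on either young WT array, beta-actin only narrowly. The log2 excess of the 3' over the 5' signal for pyruvate carboxylase was 3.88 and 4.25 in young WT mice, 4.54 and 5.10 at 12 months and 4.77 and 5.86 at 19 months, so that the pairs of both older ages overlapped. Beta-actin gave 1.22 and 1.09 at 3 months, 1.26 and 1.31 at 12 months and 1.23 and 1.25 at 19 months. Gapdh gave -0.59 and -0.51, then -0.34 and -0.46, then -0.39 and -0.44. At 12 months beta-actin thus lay above both 19-month arrays and Gapdh on either side of them. On MT arrays 1 and 2 pyruvate carboxylase gave 3.88 and 3.93, beta-actin 0.97 and 1.48, and Gapdh -0.62 and -0.38. MT array 2, the lowest for Apoa4, had the highest beta-actin value of all arrays. The part of cell composition and RNA quality in the lower apolipoprotein signals was not tested.

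Genes that act on the same particles were counted from 7 lists of 147 genes, of which 117 were tested with 1 probe set each. In MT mice 1 of them passed, against 0.515% of all probe sets, and 24 (20.5%) had an unadjusted p under 0.05, against 13.5% of all. Smlr1, a small membrane protein of the hepatocyte endoplasmic reticulum, read 2325 and 2112 in WT mice and 3930 and 5038 in MT mice, and rose by 1.01 ± 0.16 on the log2 scale (SE, limma adjusted p = 0.0378). It was also at 4200 and 5058 at 12 months and 3804 and 3398 at 19 months, with differences of 1.06 and 0.70 that did not pass (adjusted p = 0.121 and 0.190). Leaving out either young WT array ended the call, as did centring the arrays on their median or fitting without a variance trend.

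The other MT differences did not pass, and for each list the 3 largest by moderated t are given. In lipoprotein assembly Hspa5, a chaperone of the endoplasmic reticulum, was at 0.84 (limma adjusted p = 0.0683) and Pla2g12b, needed for VLDL lipidation, at -0.60 (0.0792). Among receptors Stab2, a scavenger receptor of sinusoidal endothelium, was at -1.04 (0.0501), Stab1 at -0.43 and Dab2, an endocytic adaptor, at -0.42. Among factors that act at apolipoprotein promoters Nr1d1, a clock repressor, was at -1.15 (0.0903), Srebf1 at 0.96 (0.0665) and Prox1 at 0.57, and the list lay evenly around 0 (15 of 30 above). In the fasting and feeding list Insig2 was at -1.26 (0.0658), Pdk4 at -1.15 (0.102) and Thrsp at 1.24 (0.229). Lysosomal lipase Lipa was at -0.47, endothelial lipase Lipg at 0.61 and Lmf1, a lipase chaperone, at -0.38. Among plasma regulators Angptl8, an inhibitor of lipoprotein lipase induced by feeding, was at 1.12, Itih1 at -0.45 and Itih3 at -0.37. Of the 10 genes tested from the list of further apolipoproteins and associated proteins 7 lay below 0, led by Apoo at -0.37 and Apool at -0.34, both named apolipoproteins but residing in mitochondria, and Apobec1. This list holds 2 genes that are no apolipoproteins, the editing enzyme Apobec1 and Lrpap1, a chaperone of lipoprotein receptors.

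At 12 months 0 of the 117 genes passed limma (0.0133% of all), with 25 (21.4%) at an unadjusted p under 0.05 against 8.57% of all, and the methods' t-test called 5 (2.23% of all). The fasting and feeding list had the largest median difference of the 7, at 0.58 over 17 genes, of which 10 lay above and 7 below 0. It was led by Acly (1.02), Scd1 (0.66) and Thrsp (1.502), which serve fatty acid synthesis. Sort1, a sorting receptor, was at -0.54 and Dgat2, which makes triglyceride, at 0.40. Cd36, a fatty acid transporter, was at 1.53, Mylip, which degrades the LDL receptor, at -0.67 and Stab2 at -0.42. Nr0b2 was at -1.46, Esrra at 1.01 and Ppargc1a at -0.99. Bmp1, a protease that processes proApoa1, was at 0.71, Lipg at 0.80 and the sterol transporter Abcg5 at -0.71. Angptl4, an inhibitor of lipoprotein lipase induced by fasting, was at -0.97, Itih3 at -0.33 and Angptl6 at -0.29, and Clu, another plasma apolipoprotein, was at -0.33, Apol7a at -0.36 and Apobec1 at -0.26. The lowest adjusted p among them was 0.121, that of Smlr1.

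At 19 months 0 of the 117 passed limma (0.0355% of all), with 19 (16.2%) at an unadjusted p under 0.05 against 12.5% of all, and the methods' t-test called 2 (3.33% of all). Of the 10 genes in the list with Apobec1 and Lrpap1 9 lay below 0 with a median of -0.18, led by Apof (-0.30), Apoh (-0.24) and Apoo (-0.29). Prox1, a repressor that acts with Hnf4a, was at 1.06 (limma adjusted p = 0.126), Rxra, the partner of many nuclear receptors, at 0.60 and Srebf1 at 0.72. Cd36 was at 1.81, Mylip at -0.52 and Stab2 at -0.28. Angptl4 was at -1.75, Angptl8 at 1.36 and Angptl6 at -0.30. Pla2g7, a lipoprotein-associated phospholipase made by macrophages, was at 1.01, Abcg5 at -0.57 and the HDL enzyme Pon1 at -0.22. Sar1b, a GTPase of VLDL export, was at -0.30 and Hspa5 at 0.40. The fasting and feeding list had a median of -0.34 with 11 of 17 genes below 0, with Insig2 at -0.94, Scd1 at 0.38 and Pck1 at -0.46. Between 19 and 12 months 0 of 117 passed limma (0% of all), 24 (20.5%) had an unadjusted p under 0.05 against 10.7% of all, and the methods' t-test called 5 (2.33% of all). The fasting and feeding list had a median of -0.60 with 15 of 17 genes below 0.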

How the data were processed

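Liver RNA was hybridised to 8 one-colour arrays, with 2 arrays in each of 4 groups taken from the sample labels. The deposited values were MAS5 signal intensity on a linear scale, scaled by the authors to a common trimmed mean (MAS5 is named in the submitters' processing notes, without a version). Presence calls, which the methods used as a filter, were not used here. Genes were named from the platform annotation where it gave 1 symbol, and the gene IDs of all 16 apolipoprotein probe sets were found in RefSeq with 0 symbols changed.

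Signals below 1 were set to 1, the log2 was taken, and the brighter 50% of probe sets by their mean over arrays (6.18 or more) entered a limma 3.58.1 fit under R 4.3.3 (lmFit, eBayes with a variance trend). All 4 groups were in this fit, which had 4 residual degrees of freedom and 5.37 from the prior. Tests were two-sided, with Benjamini-Hochberg adjustment over the 22519 probe sets of each comparison, calls were made below an adjusted p of 0.05, and control probe sets (64) were left out. The number of arrays limits the precision, and no exact permutation test was run, since with 2 arrays a group its smallest p is 0.333. Promoters came from RefSeq (GRCm38.p6), with Python 3.11.15, pandas 2.3.3 and numpy 2.4.6, and plots used matplotlib 3.10.9.

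The members, gene lists and tests were chosen with earlier results of these data known. Named genes were all members, called list genes, the 3 genes of largest moderated t in each list for the comparisons with WT mice of 3 months, and the 5 genes most correlated with the member of largest F. Alternatives covered normalization, transform, filter, variance prior, samples in the fit, test, threshold, choice of probe set, replicate block and leaving out each array.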

Additional observations from a re-analysis of the deposited data

How the results depend on the processing

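The number of arrays and the lack of detection calls limit what could be seen. The count of apolipoprotein probe sets called in MT mice was 0 and became 2 (both Apoa4) at an adjusted p under 0.10, and 0 to 2 when 1 array was left out. That for any difference among the groups became 2 with arrays centred on their median, 2 at an adjusted p under 0.10, and 0 to 2 when 1 array was left out. The methods' t-test called 1 at 12 months, 1 at 19 months and 2 between 19 and 12 months, and a fit of the 2 groups alone called 1 at 19 months. For pathway genes in MT mice the count of 1 became 0 with arrays centred on their median and without a variance trend, 2 with log2(signal + 16), no filter, cyclic loess or the 2 groups alone, 5 by the methods' t-test, 7 at an adjusted p under 0.10, and 0 to 4 when 1 array was left out. It was 0 without either WT array of 3 months and 4 without either of 12 months. At 12 months it was 5 by the methods' t-test, at 19 months 1 with the 2 groups alone and 2 by the methods' t-test, and between 19 and 12 months 5 by the methods' t-test. The cause of these moves was not tested.

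Single differences changed sign in 36 alternative values, and each of these had a size of at most 0.29 in the reported fit. No share is given, since many alternatives could not move a difference. A change of filter, variance prior, block or test leaves it as it is, as does leaving out an array of another group. Quantile normalization gave -0.028 for Apoa2 and -0.000206 for Apob (1455593_at) in MT mice, -0.020 for Apoe at 12 months, 0.041 for Apoa1 (1419232_a_at) and 0.074 for Apoa5 at 19 months, and 0.0043 for Apoa5 and 0.077 for Apob (1455593_at) between 19 and 12 months. Cyclic loess gave 0.081 for Apoa5 at 19 months and 0.045 for Apob between 19 and 12 months. The mean over both Apob probe sets was 0.12 at 19 months and 0.28 between 19 and 12 months. Leaving out 1 array accounted for 25 of the 36. In MT mice the ranges were then -0.032 to 0.12 and -0.012 to 0.11 for Apoa1 (1419233_x_at and 1455201_x_at), -0.044 to 0.12 for Apoa2, -0.033 to 0.14 and -0.013 to 0.60 for Apob, -0.098 to 0.66 for Apoc2 and -0.012 to 0.12 for Apoc3. At 12 months they were -0.080 to 0.11, -0.074 to 0.11, -0.071 to 0.15 and -0.080 to 0.18 for the 4 Apoa1 probe sets, -0.030 to 0.15 for Apoa2, -0.28 to 0.43 for Apoa5, -0.30 to 0.078 for Apob (1455593_at), -0.052 to 0.13 for Apoc1, -0.27 to 0.30 for Apoc2, -0.043 to 0.16 for Apoc3 and -0.10 to 0.11 for Apoe. Between 19 and 12 months they were -0.52 to 0.19 for Apoa5 and -0.29 to 0.081 for Apob (1455593_at).

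Arrays with the same replicate number deviated together little over all tested probe sets (r = -0.03 to 0.14 between the groups' replicate differences). Such a correlation cannot exclude a batch that acts on some of them, and the labels do not say what the numbers stand for. Over all probe sets the block changed the calls from 116 to 129 in MT mice and from 8 to 25 at 19 months, and left 3 at 12 months. With the replicate number as a block 0 apolipoprotein probe sets were called in each comparison, with adjusted p of 0.0771 and 0.101 for Apoa4 in MT mice.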
